A study of Mus musculus with 6 samples.

Results

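The 9 genes described here make, carry or remodel the lipids of the epidermal permeability barrier. They were the elongases Elovl1 and Elovl4, the ceramide synthase Cers3, the glucosylceramide synthase Ugcg, the lipid transporter Abca12, the acyltransferase Pnpla1 and the acid lipases Lipk, Lipm and Lipn. They were taken by symbol from a table of 23361 genes, and each was found once. No measured value entered the rule, but the genes were chosen with earlier results of these data known. RNA was sequenced from taste cells isolated from circumvallate (CV) and foliate (Fol) papillae, folds of the rear tongue that hold many taste buds, of C57BL/6 mice at 2 and 6 months of age, to find genes that change in the taste epithelium with age. Each age had 3 samples, each of which pooled cells of 4 mice at 2 months and of 3 mice at 6 months. No treatment other than age separated the groups, and the design text names 3 months in place of 2 months once. The table holds 1 FPKM value (fragments counted for a gene, scaled to transcript length and sequencing depth) for each age, estimated by the authors over the 3 samples, so levels are compared between genes per length. There is thus no SD for any gene and no test of any difference, and the depth of the samples is unknown.

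The barrier of the skin is built by keratinocytes as they die at the surface. Saturated acyl chains are lengthened by elongases in the endoplasmic reticulum and hydroxylated at the far end. They are then joined to a sphingoid base by a ceramide synthase and esterified with linoleic acid to give acylceramide. Glucosylated ceramides are loaded by ABCA12 into lamellar bodies, secreted, and trimmed back to ceramides that form the sheets between cornified cells. Loss of several of these genes causes ichthyosis, a scaling disease of the skin. Tongue papillae carry a stratified epithelium too, and enzyme-released taste cells lie next to it. In bulk RNA such as this, fewer cells of a type and less RNA per cell cannot be told apart.

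Sequences upstream of 4 of the genes, which differ in level and in the difference between the ages, are shown. The highest gene, Elovl1, and the expressed genes with the lowest differences, Lipk and Ugcg, are not among them. Each is the run of 250 bases that ends just before a RefSeq transcript start on GRCm38.p6, written 5′ to 3′ on the strand of the gene. Capitals mark CpG dinucleotides, the sites of DNA methylation, which was not measured here. Elovl4 (chr9:83806306-83806555, minus strand) had 1 of the highest levels and was lower at 6 months, and Cers3 (chr7:66743254-66743503, plus strand) stood next to it in the pathway. Lipm (chr19:34100693-34100942, plus strand) was almost level between the ages, and Abca12 (chr1:71414911-71415160, minus strand) was the only one of the 8 expressed genes that was higher at 6 months. The last 10 bases of the Lipm window lie in the first exon of the GENCODE model.
Elovl4: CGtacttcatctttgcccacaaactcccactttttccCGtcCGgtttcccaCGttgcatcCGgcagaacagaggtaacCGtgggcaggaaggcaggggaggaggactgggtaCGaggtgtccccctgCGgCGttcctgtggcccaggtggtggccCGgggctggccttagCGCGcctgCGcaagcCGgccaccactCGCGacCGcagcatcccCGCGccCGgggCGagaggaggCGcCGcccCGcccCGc
Cers3: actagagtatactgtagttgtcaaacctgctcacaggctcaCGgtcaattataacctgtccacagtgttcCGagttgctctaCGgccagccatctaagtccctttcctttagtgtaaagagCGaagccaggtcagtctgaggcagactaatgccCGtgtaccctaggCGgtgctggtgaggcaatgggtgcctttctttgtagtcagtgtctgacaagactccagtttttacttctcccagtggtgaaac
Lipm: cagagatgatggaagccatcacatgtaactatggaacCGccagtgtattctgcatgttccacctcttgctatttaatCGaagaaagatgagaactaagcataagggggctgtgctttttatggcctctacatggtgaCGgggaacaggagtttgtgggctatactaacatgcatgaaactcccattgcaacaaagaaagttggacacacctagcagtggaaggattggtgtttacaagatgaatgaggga
Abca12: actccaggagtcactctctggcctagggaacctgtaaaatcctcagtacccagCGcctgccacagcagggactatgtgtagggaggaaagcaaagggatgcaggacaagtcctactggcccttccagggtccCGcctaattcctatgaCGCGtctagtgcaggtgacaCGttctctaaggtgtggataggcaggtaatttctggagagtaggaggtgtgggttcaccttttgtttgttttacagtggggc

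The 4 windows differed mainly in their CpG content. The Elovl4 window held 25 CpG, the Cers3 window 6, the Abca12 window 5 and the Lipm window 3, and the median over 32851 RefSeq windows of the same length was 6. As many CpG as in Elovl4 were found in 10.7% of all windows. Of the other genes, Ugcg had 43 CpG, a number reached by 0.712% of windows, Elovl1 had 18 in the first of its windows and 5 in the second, and Pnpla1 and Lipn had 5 each. The window of Ugcg lies partly and that of Lipn wholly inside the gene range that RefSeq gives, and that of Ugcg lies wholly inside the GENCODE range. The second window of Elovl1 lies inside the gene, after its first transcript start. Windows were found for 8 of the 9 genes. The match of an AP-1 site (TGACTCA or its complement TGAGTCA), the element bound by Fos and Jun proteins, was searched on both strands. It occurred in 4.46% of all windows and, among those of the barrier lipid genes, in that of Lipn alone. GC boxes (GGGCGG on either strand, 32.7% of all windows) were present in the windows of Ugcg, Elovl1 and Elovl4, and CCAAT (either strand, 33.8% of all windows) in those of Elovl1, Pnpla1 and Lipm. Neither TATAAA (12.4% of all windows) nor CACGTG (6.02% of all windows) was present in any of them. A match in these windows is a run of letters and not a measured binding site.

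The 8 genes other than Lipn were expressed in CV/Fol taste cells at both ages, with a mean of at least 1 FPKM as the limit that 12652 of all genes passed. At 2 months the highest was Elovl1 with 149.9 FPKM, followed by Elovl4, Cers3, Lipm, Ugcg, Abca12, Lipk and Pnpla1, the lowest of the 8 with 7.25 FPKM, a 20.7-fold range. At 6 months the order was the same except that Lipm (37.6 FPKM) stood above Cers3 (35.4 FPKM) and Pnpla1 (6.395 FPKM) above Lipk (5.21 FPKM). With 1 value per age, no spread is known that would separate neighbours in this order. The summed level of the 9 genes was 423.0 FPKM at 2 months against 359.5 FPKM at 6 months.

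**Figure D1:**
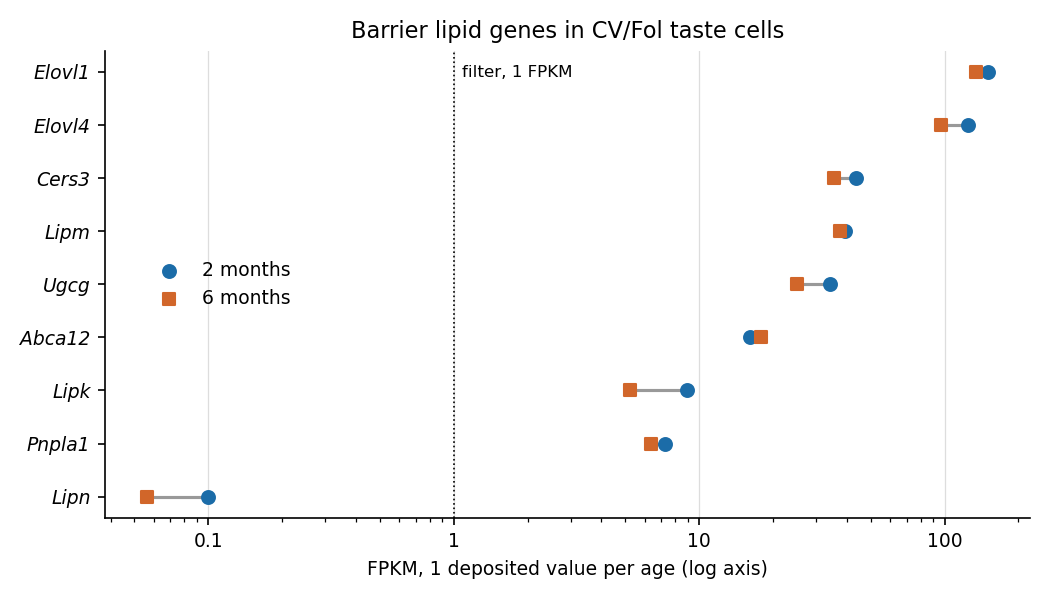
Level of each barrier lipid gene at 2 months (blue circles) and 6 months (orange squares) in FPKM on a log axis, 1 deposited value per age, with a grey line joining the ages and a dotted line at the limit of 1 FPKM. The squares lie to the left of the circles for every gene except Abca12, and the widest gap among the 8 expressed genes is that of Lipk. Lipn, for which no difference is read, lies below 0.1 FPKM at both ages.

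In 6 month taste cells 7 of the 8 expressed genes had a lower level than in 2 month taste cells, and Abca12 had a higher one. Of all 12652 expressed genes, 53.7% had a lower level at 6 months. Differences are those of log2(FPKM + 1), with the 2 month value subtracted from the 6 month value, a scale that understates those of low genes. The median difference of the 8 genes was -0.22, and that of all 12652 expressed genes was -0.01 with quartiles of -0.10 and 0.08. Only Lipk was lower by 1.5 times or more, and none of the 8 was higher by that much. Over all expressed genes, 1.72% were lower and 1.05% higher by at least 1.5 times. These shares include genes listed at 0 at one age, among them Krt4 and Krt6a. Without Lipk the median of the other 7 was -0.16.

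Elovl1 encodes the elongase that extends saturated and monounsaturated acyl chains to the very long range. Its level was 149.9 FPKM at 2 months against 134.9 FPKM at 6 months, a log2 difference of -0.15. Only 4.62% of expressed genes had as high a level at 2 months. Elovl4, whose product extends chains further, to the ultra-long acyl groups of acylceramide, had 124.1 FPKM at 2 months against 97.0 FPKM at 6 months. The 6 month level of Elovl4 was 0.782 times the 2 month level, a log2 difference of -0.35, and 3.64% of expressed genes had a difference as low or lower. The ratio of Elovl1 to Elovl4 was 1.21 at 2 months and 1.39 at 6 months. Both genes stood far above the other 5 elongases of the family. Elovl7 followed with 29.9 FPKM at 2 months against 25.8 FPKM at 6 months, Elovl5 and Elovl6 lay between 21.0 and 22.4 FPKM at both ages, Elovl2 was under 0.06 FPKM and Elovl3 was listed at 0. Together Elovl1 and Elovl4 supplied 43.2% and 35.8% of the summed level of the elongases at 2 months, and 44.6% and 32.1% at 6 months. The Elovl1 gene (chr4:118428093-118432953, plus strand, 8 exons) shares 53 exon bases with Cdc20 on the other strand, and Elovl4 (chr9:83778692-83806277, minus strand, 6 exons) shares none with another gene.

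Cers3 encodes the ceramide synthase that takes ultra-long acyl groups. It had 43.4 FPKM at 2 months against 35.4 FPKM at 6 months, which is 0.816 times the earlier level. The log2 difference was -0.29, and 5.43% of expressed genes had a difference as low or lower. Cers3 had the highest level of the 6 ceramide synthases at both ages. Cers2, which prefers very long acyl groups and is widely expressed, came next with 32.5 FPKM at 2 months against 29.5 FPKM at 6 months. The ratio of Cers3 to Cers2 was 1.33 at 2 months and 1.20 at 6 months, and the share of Cers3 in the summed level of the family was 41.3% and 38.2%. Cers5 had 17.4 and 17.2 FPKM, Cers6 5.97 and 5.90 FPKM, Cers4 5.65 and 4.77 FPKM, and Cers1 was under 0.05 FPKM. Elovl4 and Cers3, which act in turn on the same acyl chain, kept a ratio of 2.86 at 2 months and 2.74 at 6 months. The Cers3 gene lies at chr7:66743504-66823691 on the plus strand and has 11 exons in its longest coding transcript.

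Ugcg encodes glucosylceramide synthase, which adds the glucose that ceramides carry in lamellar bodies. Its level was 34.04 FPKM at 2 months against 25.04 FPKM at 6 months, or 0.736 times the earlier level. The log2 difference of -0.43 was the second lowest of the 8 genes, and 2.66% of all expressed genes had one as low or lower. Sgms1 and Sgms2, which turn ceramide into sphingomyelin instead, were at 27.1 and 6.94 FPKM in 2 month taste cells and at 23.5 and 5.97 FPKM in 6 month taste cells. Ugcg was the highest of these 3 transferases at both ages, with a ratio to Sgms1 of 1.26 and then 1.06. Ugcg lies at chr4:59189257-59222833 on the plus strand, with 9 exons.

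Abca12 encodes the transporter that loads glucosylceramide into lamellar bodies. It had 16.05 FPKM at 2 months against 17.8 FPKM at 6 months, a log2 difference of 0.14, and 86.8% of expressed genes had a difference as low or lower. The ratio of Abca12 to Ugcg was 0.472 at 2 months and 0.712 at 6 months. Among 16 Abca genes Abca12 had the highest level at both ages, with Abca7 close below it at 14.4 and 17.0 FPKM. Each of the other 6 expressed Abca genes was also higher at 6 months, with a median log2 difference of 0.17, and this held after scaling to the same upper quartile (0.21). The gene is the longest of the 9, with 53 exons over chr1:71242276-71414910 on the minus strand.

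**Figure D2:**
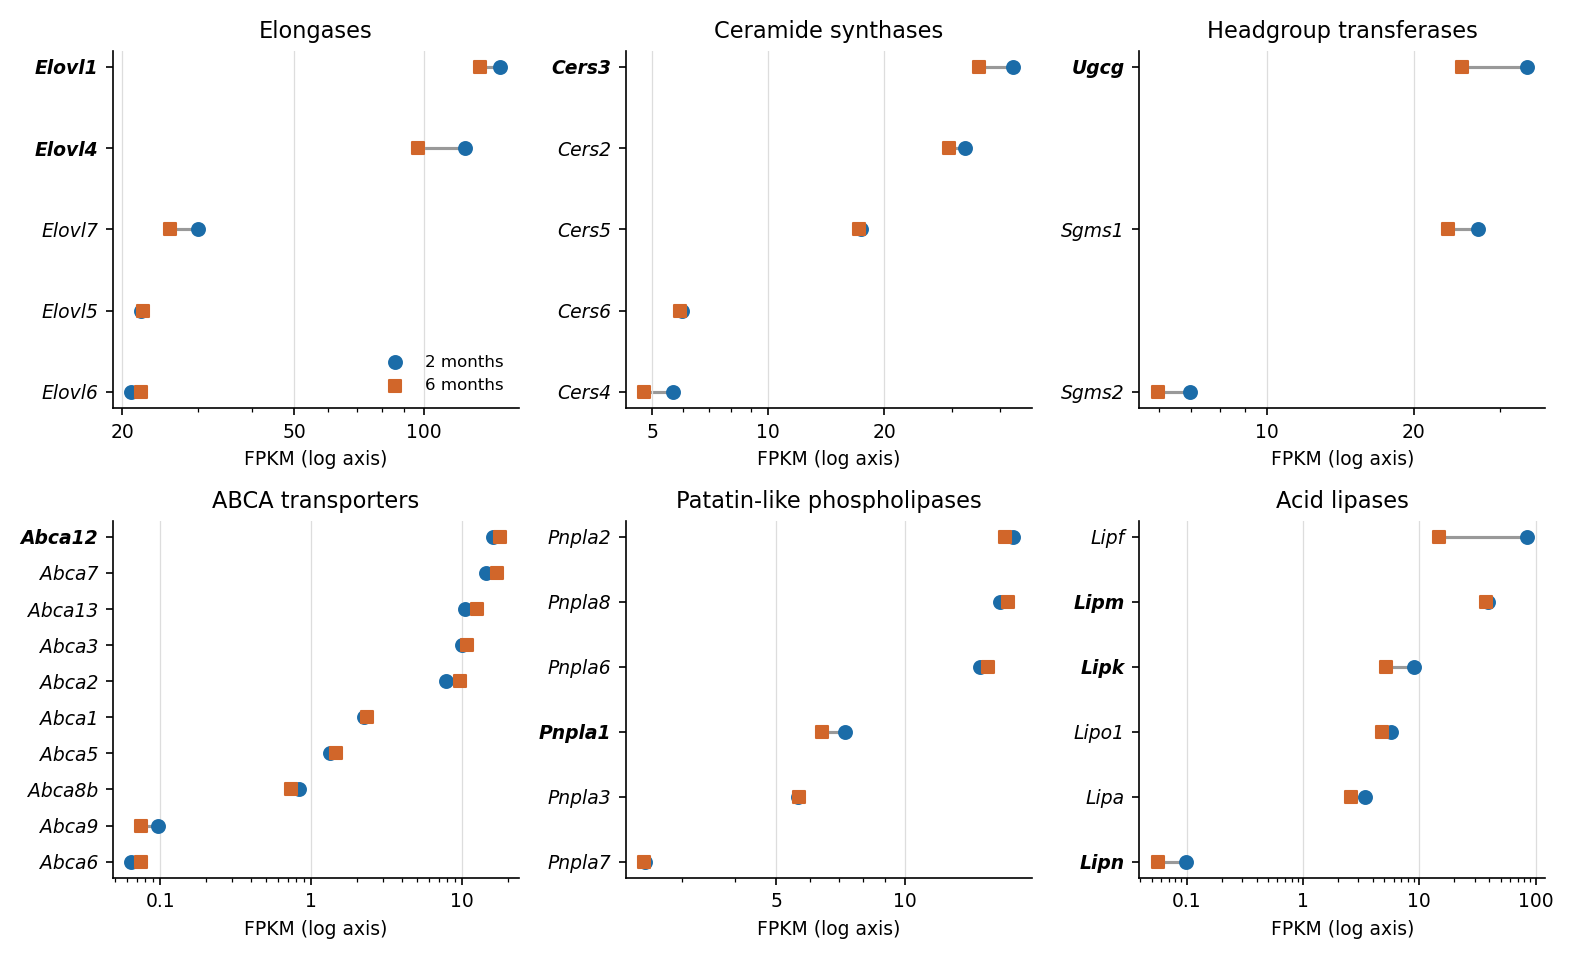
Level at 2 months (blue circles) and 6 months (orange squares) of the genes in 6 enzyme and transporter families, in FPKM on log axes that differ between panels, with barrier lipid genes in bold and genes with a mean under 0.05 FPKM left out. Elovl1, followed by Elovl4, and Cers3, Ugcg and Abca12 head their panels at both ages, Pnpla1 stands below Pnpla2, Pnpla8 and Pnpla6, and Lipf passes from above Lipm to below it.

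Pnpla1 encodes the enzyme that transfers linoleic acid to ultra-long ceramides, the step that yields acylceramide. It had 7.25 FPKM at 2 months against 6.395 FPKM at 6 months, a log2 difference of -0.16, and 15.8% of expressed genes had a difference as low or lower. Within its family Pnpla1 stood at both ages at rank 4 of 7, below Pnpla2 (18.0 and 17.2 FPKM), Pnpla8 (16.7 and 17.4 FPKM) and Pnpla6 (15.0 and 15.7 FPKM), and above Pnpla3 (5.63 and 5.67 FPKM). Pnpla1 (chr17:28858411-28890309, plus strand, 10 exons) shares 644 exon bases, 14.4% of its longest coding transcript, with the antisense gene Pnpla1os in GENCODE. The strand of the library is not stated, and reads of the pair may not have been told apart.

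Lipk, Lipm and Lipn belong to a group of secreted acid lipases that lie side by side on chromosome 19 and that were described in differentiating keratinocytes. In GENCODE they lie at chr19:34008290-34047835 (Lipk), chr19:34067358-34084918 (Lipn) and chr19:34100933-34122687 (Lipm), each with 10 exons in its longest coding transcript. Lipk had 8.94 FPKM at 2 months against 5.21 FPKM at 6 months. The 2 month level was 1.72 times the 6 month level, the log2 difference was -0.68, and 1.47% of expressed genes had one as low or lower. Lipm was the highest of the 3 with 39.2 FPKM at 2 months against 37.6 FPKM at 6 months, a log2 difference of -0.06. Lipn was listed at 0.0994 FPKM at 2 months against 0.0564 FPKM at 6 months, under the limit for expressed genes, so that no difference is read for it. The ratio of Lipm to Lipk was 4.38 at 2 months and 7.23 at 6 months.

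These neighbours differed widely in level. Lipk, Lipn and Lipm follow each other on the plus strand within 114.4 kb, with 0 other protein-coding genes wholly between them in RefSeq, and Lipn ends 15.0 kb before the start of Lipm. The level of Lipm was nevertheless 394 times that of Lipn at 2 months and 667 times at 6 months. Lipf, named gastric lipase and also read among the gland genes below, starts 47.0 kb before Lipk. It had 83.7 FPKM at 2 months against 14.7 FPKM at 6 months. Lipf was therefore 2.14 times Lipm at 2 months and 0.391 times Lipm at 6 months, and the share of Lipm in the summed level of the 6 acid lipases was 27.8% and then 57.9%. Lipo1 (5.69 and 4.77 FPKM), a symbol that RefSeq also gives as an older name of Lipo3, and Lipa, the lysosomal acid lipase (3.43 and 2.56 FPKM), were also lower at 6 months by less than 1.5 times. None of the runs of 50 bases in the transcripts of Lipk and Lipn occurred in another gene. Of 2662 such runs in Lipm, 1170 were shared with Ankrd22, which lies on the other strand and overlaps 1219 bases, 45.0% of the longest coding transcript of Lipm, in GENCODE. In RefSeq, the annotation the authors used in an earlier release, the ranges of the 2 genes overlap by 139 bases. Ankrd22 had 28.2 FPKM at 2 months against 21.0 FPKM at 6 months, and how much of the Lipm level comes from its reads was not tested.

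**Figure D3:**
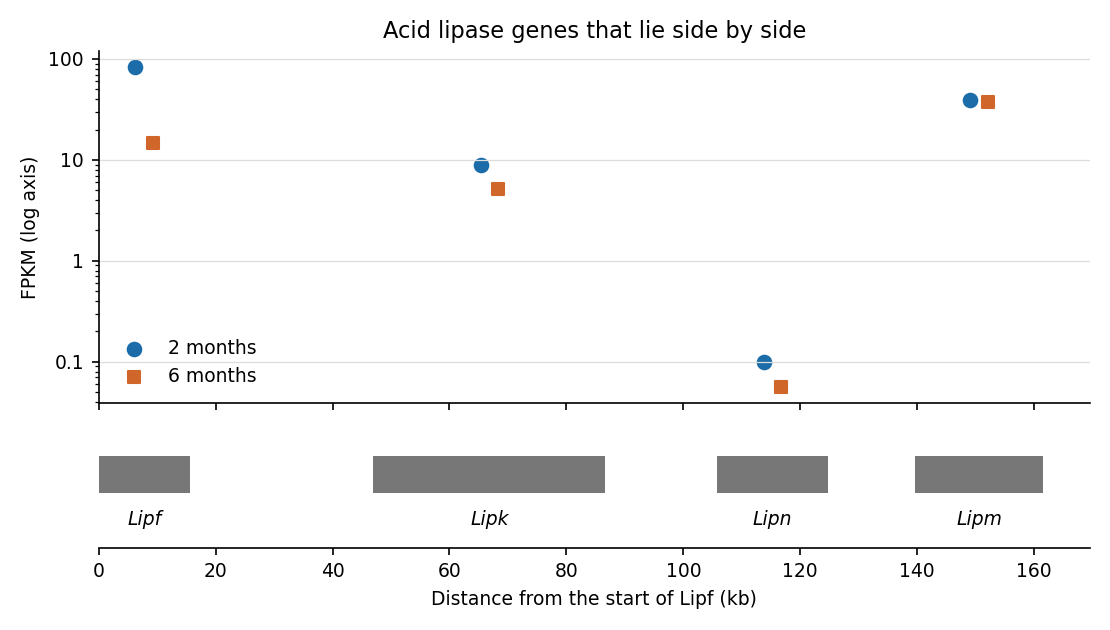
Level of 4 neighbouring acid lipase genes at 2 months (blue circles) and 6 months (orange squares) in FPKM on a log axis, above a map of their RefSeq ranges in kb from the start of Lipf. Lipn, between Lipk and Lipm, lies near 0.1 FPKM, Lipm is nearly level between the ages, and Lipf and Lipk are lower at 6 months.

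Of 78 further genes of the pathway and of the same families, in 10 lists, 59 were expressed, 3 were lower by at least 1.5 times and 0 were higher, against the same backgrounds of 1.72% and 1.05%. Their median log2 difference was -0.05, or -0.01 after scaling to the same upper quartile, where the barrier lipid genes had -0.22 and -0.18. The 3 genes were Smpd3 and Gba2, which release ceramide from sphingomyelin and from glucosylceramide outside the lysosome, and Lipf. Smpd3 had 11.5 FPKM at 2 months against 3.71 FPKM at 6 months, a log2 difference of -1.41. Gba2 had 9.23 and 4.92 FPKM, a log2 difference of -0.79. No other enzyme of the headgroup list passed 1.5 times, and its highest gene, Psap, the precursor of the saposin activators, had 246 and 249 FPKM.

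Along the route to ceramide, the other elongation genes had a median log2 difference of -0.07 over 8 expressed genes, and the highest, Tecr, the last reductase of the elongation cycle, had 135.6 FPKM at 2 months against 131.1 FPKM at 6 months. The genes for acyl activation and hydroxylation had a median of -0.05 over 7 genes, led by Cyp4f39, the mouse omega-hydroxylase of ultra-long acyl groups, with 107.6 and 109.3 FPKM. Of 12 expressed genes of ceramide synthesis other than Cers3, 11 were lower at 6 months, against 53.7% of all expressed genes. Only 7 were lower after scaling to the same upper quartile, and the median before scaling was -0.07. Sptssb, a small subunit of serine palmitoyltransferase, led this list with 168 and 147 FPKM. Ceramidases had a median of 0.02 over 5 genes, and the highest by the mean of both ages was Asah1 with 23.8 and 22.9 FPKM.

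The list of acylceramide processing and the lipid envelope was led by Tgm1, the transglutaminase of the cornified envelope, with 224 FPKM at 2 months against 220 FPKM at 6 months, and had a median of -0.08 over 5 genes. Sult2b1, which makes cholesterol sulfate, had 113 and 116 FPKM. The other Pnpla genes had a median of 0.01 over 5 genes. Fa2h was at 0.533 and 0.377 FPKM, under the limit for expressed genes. Of the listed genes, Sts, Lipo2, Lipo3 and Lipo4 were not analysed here.

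**Figure D4:**
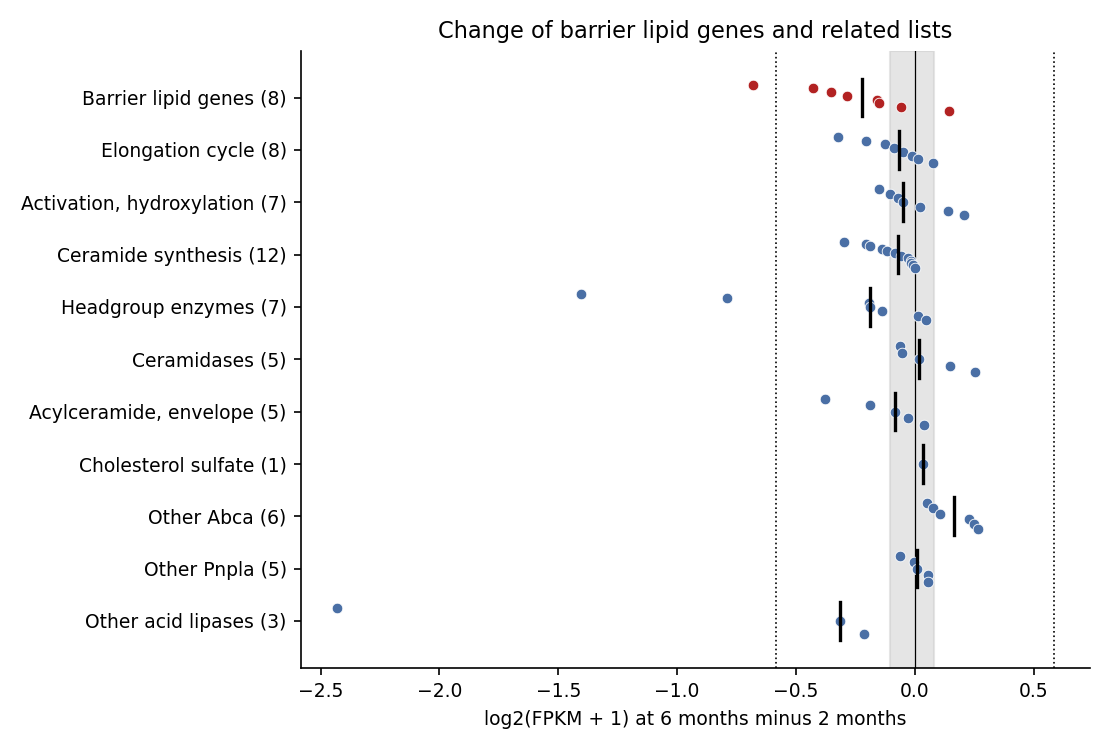
Difference in log2(FPKM + 1), 6 months minus 2 months, of the 8 expressed barrier lipid genes (red) and of the expressed genes of 10 related lists (blue, number in brackets), with black bars at the medians, the grey band between the quartiles of all expressed genes and dotted lines at 1.5 times. Of the barrier lipid genes, 6 lie below the band and 1 above it, and Lipk alone is past a dotted line. Among the other lists Smpd3, Gba2 and Lipf are past it.

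Markers of the cells that a preparation from tongue epithelium can hold were read beside these values. Genes of all 3 taste cell types were present at both ages. Gng13, a G protein subunit of type II cells, had 148 and 126 FPKM, Entpd2 of type I cells 66.1 and 57.7 FPKM, and Pkd2l1, a channel of type III cells, 12.4 and 13.97 FPKM. None of the 16 expressed genes of the 3 taste cell lists was past 1.5 times. The medians were -0.21 for type I over only 2 genes, -0.03 for type II over 7 and 0.17 for type III over 7. Slc1a3, the other type I marker listed, had 0.710 and 0.988 FPKM, under the limit for expressed genes. The taste bud keratins Krt8, Krt18 and Krt19 were all lower at 6 months, with a median of -0.25, and Krt19, the highest, had 308 and 262 FPKM.

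Cornified keratinocyte markers were lower at 6 months, as were most of the barrier lipid genes. This held for all 4 expressed markers of 7 listed, also after scaling, where 53.7% of all expressed genes were lower before scaling. The summed level of the cornified list was 1515 FPKM at 2 months against 852 FPKM at 6 months. Loricrin (Lor), the main protein of the cornified envelope, had 1292 and 733 FPKM, Krt10, the keratin of cornifying suprabasal cells, had 149.7 and 70.5 FPKM, and involucrin (Ivl) had 32.9 and 21.5 FPKM. Their log2 differences were -0.82, -1.08 and -0.59, and that of Ivl passed 1.5 times narrowly and did not pass it after scaling. Krt1 (40.7 and 27.2 FPKM) stayed just within that limit. The epidermal genes Flg2 and Krt2 were under 0.05 FPKM at both ages, and Flg was not analysed here. The median difference of the 4 markers was -0.70, lower than that of any of the 8 expressed barrier lipid genes, of which Lipk at -0.68 came closest. Whether the share of cornifying cells differed between the ages, and whether it has a part in the barrier lipid values, was not tested.

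Basal markers were more mixed, with 3 lower and 3 higher at 6 months. The 6 basal keratinocyte markers had a median of -0.05 and summed to 4646 FPKM at 2 months against 4619 FPKM at 6 months, with Krt5 highest at 2180 and 1962 FPKM. For keratins of the non-cornified suprabasal layer the table is uneven: Krt13 was listed at 0 at both ages, Krt4 had 7334 FPKM at 2 months and was listed at 0 at 6 months, and Krt6a was listed at 0 at 2 months and had 3391 FPKM at 6 months. Whether a value of 0 stands for no RNA or for a failed estimate is not known, so no difference is read for Krt4 or Krt6a. Both are nevertheless counted in the shares of all expressed genes past 1.5 times. Over all genes, 80 were listed at 0 at one age and above 1 FPKM at the other, and none of the barrier lipid genes was among them. Krt6b had 940 and 856 FPKM and Krt16 821 and 573 FPKM, both lower at 6 months by less than 1.5 times. Sebocytes also use several barrier lipid genes, and of their 6 markers 2 were expressed, Soat1 with 3.96 and 3.43 FPKM and Scd1 with 3.67 and 3.69 FPKM, while Awat1 was listed at 0 and Mc5r was under 0.02 FPKM.

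Outside the epithelium, Dcn was the only fibroblast marker past 1.5 times, with 42.03 FPKM at 2 months against 27.3 FPKM at 6 months, and did not pass it after scaling, while the collagens Col1a1, Col1a2 and Col3a1 were under 0.15 FPKM. In the gland list 5 of 6 expressed genes were lower at 6 months, also after scaling, against 53.7% of all expressed genes before scaling. The median of the gland list was -0.43. Lipf was the only one of these 5 past 1.5 times, and Dcpp2, with 1.45 and 3.28 FPKM, was higher by more than that. Skeletal muscle genes were higher at 6 months, from a summed 13.1 FPKM to 26.2 FPKM, and Acta1, Ckm, Mb, Tnnc2 and Tnnt3 passed 1.5 times with log2 differences of 0.65 to 1.07. Fabp4 of the adipocyte list had 0.692 and 3.48 FPKM, while Adipoq, Plin1 and Cidec were under 0.05 FPKM. No leukocyte marker passed 1.5 times, and the highest was Lyz2 with 293 and 254 FPKM.

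**Figure D5:**
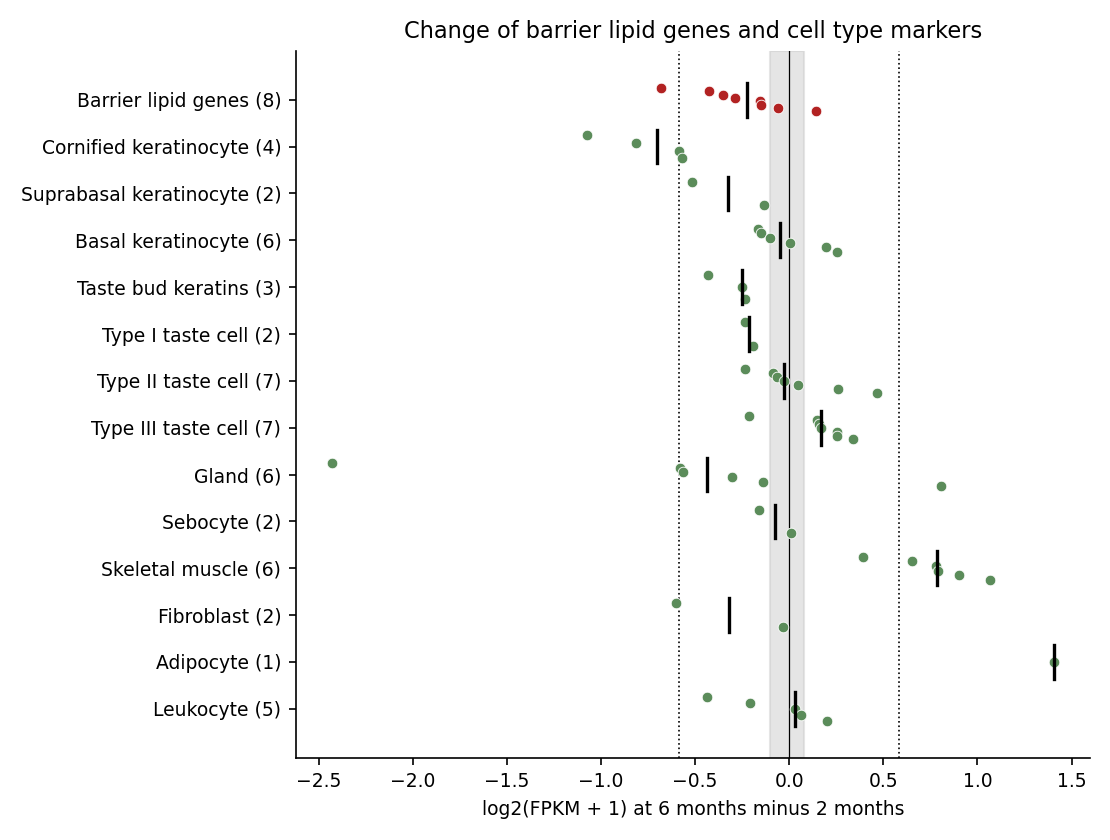
Difference in log2(FPKM + 1), 6 months minus 2 months, of the 8 expressed barrier lipid genes (red) and of the expressed genes of 13 cell type marker lists (green, number in brackets), with medians, quartile band and dotted lines at 1.5 times as in the plot of changes by role. Krt4 and Krt6a, listed at 0 at one age, are left out of the suprabasal list. The cornified keratinocyte markers lie from -1.08 to -0.57, the barrier lipid genes from -0.68 to 0.14 and the skeletal muscle genes from 0.39 to 1.07.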

How the data were processed

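RNA of CV/Fol taste cells was poly-A selected and sequenced from 3 pooled samples at each of 2 and 6 months. Reads were aligned by the authors to GRCm38/mm10 using TopHat2 2.0.7, and RefSeq genes were quantified using Cufflinks 2.1.1 and Cuffdiff, as given in their processing notes and methods. The values they deposited are FPKM, 1 per gene and age over the 3 samples of that age, and the normalization between samples is not given in the sources used here. A further deposited column holds the unadjusted p-values of the authors' own comparison, and it was not used.

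Differences were taken as log2(FPKM + 1), 6 minus 2 months, over genes whose mean was 1 FPKM or more, and a difference of 1.5 times or more on that scale was counted. No test was made, since a single value per age leaves no spread, and depth is unknown. The counting was tested on simulated data. Other settings tried were 2 times as the limit, a mean of 5 FPKM or more, all genes unfiltered, a pseudocount of 0.1 and scaling of the 6 month values by 1.03 to the same upper quartile.

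The barrier lipid genes and all lists were chosen with earlier results of these data known. Of the pathway and marker lists, the genes past 1.5 times and the highest gene of each were named, apart from an item that is not reported here, and others named were chosen after their values were seen. Gene positions, exons and overlaps came from GENCODE M21 on GRCm38, and upstream sequences and gene ranges from RefSeq on GRCm38.p6. Python 3.11.15 was used with pandas 2.3.3, numpy 2.4.6 and matplotlib 3.10.9.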

Additional observations from a re-analysis of the deposited data

How the results depend on the processing

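No paired analysis was possible because there is 1 value per age over all 3 samples, and for the same reason no sample could be left out. With 2 times in place of 1.5 times as the limit, 0 of the barrier lipid genes passed in place of 1, and 202 of all genes passed in place of 350. These counts are lower by construction. The other 15 of 17 recomputed counts and medians stayed within 1.5 times of the reported value. The median of the expressed barrier lipid genes, -0.22, was -0.18 after scaling to the same upper quartile, -0.24 with a pseudocount of 0.1 and -0.16 with no filter, where Lipn enters. Lipk alone passed 1.5 times under each setting other than 2 times. Of 18 single-gene values, 0 changed sign and 16 stayed within 1.5 times. The exceptions were Lipm, at -0.02 after scaling, and Lipn, at -0.35 with a pseudocount of 0.1, a value set by levels under 0.1 FPKM. Scaling moved the median of all genes from -0.01 to 0.03, left 3 pathway genes past 1.5 times, and changed the counts of pathway genes lower and higher from 37 and 22 to 30 and 29.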

Other observations

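Lamellar bodies carry more than lipid, and a list of 11 genes for their traffic, their cargo and the adhesion protein that the cargo cuts was drawn up after the values of the barrier lipid genes had been seen. All 11 were expressed, the median log2 difference was -0.05, and 2 were lower at 6 months by at least 1.5 times, against 1.72% of all expressed genes. Klk7, the chymotrypsin-like protease of shedding cornified cells, had 39.1 FPKM at 2 months against 6.20 FPKM at 6 months, a log2 difference of -2.48. Cdsn, the corneodesmosome protein that it cuts, had 147 and 63.9 FPKM, a log2 difference of -1.19. Spink5, which inhibits it, had 156 and 163 FPKM, and Ctsd, a lysosomal protease, had 467 and 460 FPKM. Among the traffic genes Rab11a had 136 and 132 FPKM and Vps33b 14.6 and 15.8 FPKM.

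Transcription factors known to act on epidermal lipid genes were listed in the same way, and 13 of 14 were expressed, with none past 1.5 times in either direction. Grhl3 had 121 FPKM at 2 months against 126 FPKM at 6 months, and Grhl1 75.01 and 78.01 FPKM. The differences ran from -0.46 for Ovol1 (81.7 and 59.2 FPKM) to 0.35 for Ppara (1.147 and 1.744 FPKM), with a median of 0.06, or 0.10 after scaling to the same upper quartile.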
